A study of Mus musculus with 5 samples.

Results

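Platelet-bias and megakaryocyte genes were followed in hematopoietic stem cells (HSCs) with and without Syncrip, which encodes an RNA-binding protein. The 10 genes were Vwf, Itga2b, Itgb3, Pf4, Gp9, Gp1ba, Selp, Cd9, Clu and Rab27b. They were picked by name, as known megakaryocyte-lineage genes, but with earlier results of these data known. They make up 10 of the 24046 gene symbols in the table. All 10 were found, and all 10 were among the 13661 genes that passed a filter on low values. The lowest count of any of them in any library was 226 reads.

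Every donor carried floxed alleles of Syncrip on both chromosomes (Syncrip flox/flox). WT donors lacked the Mx1-Cre transgene, and KO donors carried it. Whole marrow was transplanted into congenic CD45.1 recipients, polyinosinic:polycytidylic acid (pIpC) was given to both groups 6 weeks later, and HSCs were sorted by flow cytometry 9 weeks after transplantation, which was 3 weeks after pIpC. The Mx1 promoter answers to interferon, which pIpC induces, in many cell types and not in HSCs alone. Since the WT donors had no Cre, the presence of Cre and the loss of Syncrip cannot be told apart. The sorted cells were donor-derived (CD45.2+), lineage-negative, Sca1+, cKit+, CD150+ and CD48-. The lineage antibodies did not include one against CD41, the protein of Itga2b. There were 3 WT libraries (WT 1, WT 2, WT 3) and 2 KO libraries (KO 2, KO 3). Whether each came from a separate animal was not stated, so p-values measure the spread between these libraries.

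Megakaryocytes are the marrow cells that shed platelets. Platelets stop bleeding by binding von Willebrand factor at a damaged vessel wall through the glycoprotein Ib-IX-V complex, by cross-linking through the fibrinogen receptor, integrin alphaIIb-beta3, and by releasing the contents of their alpha and dense granules. Several megakaryocyte genes are already transcribed in a fraction of HSCs. Mouse HSCs that express Vwf are known for a bias towards platelet production, and Clu, Selp and Itga2b are known as genes of megakaryocyte-primed or aged HSCs.

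Values are normalized read counts, meaning reads divided by a size factor of the library. The libraries held 12539599 (KO 3) to 22779536 (WT 3) reads, and KO 2 and KO 3 had the fewest. Syncrip, the targeted gene, had a KO mean of 0.185 times the WT mean (log2 fold change -2.43, SE 0.22, limma adjusted p = 0.0352). Genes of the positive gate markers were detected in all libraries, with Kit at 8007 to 10741, Ly6a (Sca1) at 279 to 857 and Slamf1 (CD150) at 195 to 522, each overlapping between the groups. Ptprc, which encodes CD45, was at 3735 to 4635 in WT, 2010 in KO 2 and 1271 in KO 3 (log2 fold change -1.42, limma adjusted p = 0.0815). Cd48, whose protein was sorted against, was at 601 to 768 in WT, 459 in KO 2 and 191 in KO 3. A list of 10 neutrophil genes took 6.03% to 7.20% of the reads in WT, 5.34% in KO 2 and 2.60% in KO 3. The genes of this list did not all go the same way. Ngp and Ltf had log2 fold changes of -1.37 and -1.20, while 2 of the 10, Elane and Prtn3, were above 0 (0.019 and 0.3). KO 2 stood out by fat cell transcripts (10 adipocyte genes took 0.148% of its reads, and at most 0.00219% in any other library). KO 3 stood farthest from WT, with a correlation of log2 values of 0.882 to 0.912 against 0.932 to 0.947 for KO 2. A list of 9 erythroid genes took 0.0819% to 0.119% of reads in WT, 0.120% in KO 2 and 0.0694% in KO 3, while 7 macrophage genes took at most 0.0294% and 6 B cell genes at most 0.00312% of any library. The part of these shares in the results was not tested, and for the 10 genes and the medians of the gene lists KO 2 and KO 3 are also given apart.

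To show the genes' own regulatory sequence, the bases directly before the transcription start were read from a table of RefSeq promoters (GRCm38.p6). Of the 10 genes, 6 were matched in the table used here, namely Itga2b, Pf4, Gp9, Gp1ba, Selp and Cd9. Promoters of Vwf, Itgb3, Clu and Rab27b were not analysed here. The 250 bases upstream are printed for 2 genes whose KO values both lay above WT (Pf4 and Gp9) and 2 whose groups overlapped (Gp1ba and Selp). None of these 4 windows held an annotated exon in GENCODE M21. Capitals mark matches to short motifs of factors known in megakaryocytes, on either strand: GATAA (opposite strand TTATC) for GATA factors, AGGAAG (opposite strand CTTCCT) for ETS factors and TGTGGT (opposite strand ACCACA) for RUNX factors. No match in the printed windows overlapped another.
Pf4: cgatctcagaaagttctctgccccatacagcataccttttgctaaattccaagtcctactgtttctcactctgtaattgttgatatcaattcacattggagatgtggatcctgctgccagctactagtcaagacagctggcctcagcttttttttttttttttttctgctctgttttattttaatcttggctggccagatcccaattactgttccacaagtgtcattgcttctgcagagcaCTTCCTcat
Gp9: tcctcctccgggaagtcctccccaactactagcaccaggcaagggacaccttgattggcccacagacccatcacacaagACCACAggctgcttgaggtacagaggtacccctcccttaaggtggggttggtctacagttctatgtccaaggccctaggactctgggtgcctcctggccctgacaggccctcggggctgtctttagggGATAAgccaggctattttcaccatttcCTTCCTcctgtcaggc
Gp1ba: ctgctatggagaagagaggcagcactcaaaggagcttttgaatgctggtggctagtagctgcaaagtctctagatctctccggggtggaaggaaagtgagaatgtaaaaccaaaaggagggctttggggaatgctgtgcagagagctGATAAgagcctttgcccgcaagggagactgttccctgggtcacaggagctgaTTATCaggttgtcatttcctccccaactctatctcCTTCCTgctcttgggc
Selp: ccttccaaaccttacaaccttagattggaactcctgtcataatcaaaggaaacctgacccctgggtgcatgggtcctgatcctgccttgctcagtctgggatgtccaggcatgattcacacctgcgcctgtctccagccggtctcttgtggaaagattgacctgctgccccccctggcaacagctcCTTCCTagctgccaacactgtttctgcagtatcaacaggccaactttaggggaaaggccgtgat
The Pf4 window was chr5:90772185-90772434 and the Selp window chr1:164115014-164115263, both on the plus strand. The Gp9 window was chr6:87777820-87778069 and the Gp1ba window chr11:70638872-70639121, also on the plus strand.

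An ETS match lay in all 6 windows, against 29.5% of 32851 promoter windows of the same length. The other 2 windows, those of Itga2b and Cd9, held 180 and 250 annotated exon bases out of 250. The ETS match began 9 bases before the start in Pf4, 16 bases before it in both Gp9 and Gp1ba, and 64 bases before it in Selp. GATA matches were found in 2 of the 6, Gp9 and Gp1ba, against 22.6% of all windows. A RUNX match was found in 1, Gp9, against 14.0%. The matches describe letters only.

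The order of the 10 genes in unperturbed cells was taken from the WT libraries, with values divided by the length of each gene's longest transcript. Cd9, a tetraspanin of the cell surface, had 3473 ± 114 normalized reads per kb (SD, n = 3), and Pf4, the chemokine platelet factor 4, had 2830 ± 705. The WT ranges of these leading genes overlapped. Itga2b followed at 924 ± 286 and Gp9 at 397 ± 48.2, each below the range of the gene before it. Selp, at 244 ± 102, overlapped Gp9 in range. Itgb3 (166 ± 43.2), Clu (165 ± 51.9) and Vwf (158 ± 53.6) could not be put in order, since their ranges overlapped each other and that of Selp. Gp1ba (83.8 ± 13.7) and Rab27b (51.1 ± 10.3) were lowest, and each lay apart from its neighbours. In KO, per kb, Pf4 led with 7081 ± 2070 (SD, n = 2), ahead of Cd9 with 2358 ± 388, and Vwf stood at 591 ± 336, above Clu, Selp and Itgb3 by its mean.

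Transcripts that are abundant in mature platelets were set beside Pf4. The genes chosen for this comparison after their values were seen were Ppbp (pro-platelet basic protein), Tubb1 (the platelet beta-tubulin), Treml1 and Clec1b (platelet surface receptors) and Gp6 (the collagen receptor). In WT, Treml1 had 123 normalized reads per kb, Ppbp 42.9, Tubb1 18.2 and Clec1b 5.30, against 2830 for Pf4. In KO, Treml1 had 204, Ppbp 41.9, Tubb1 40.5 and Clec1b 5.18, against 7081 for Pf4. Treml1 and Tubb1 were higher in both KO libraries than in every WT library, as were 23.9% of all tested genes. Their limma adjusted p was 0.266 and 0.282. Ppbp and Clec1b overlapped between the groups. Gp6 had at most 4 reads in any library and none in KO 2 or KO 3. The genes chosen here do not stand for all platelet transcripts. Others of the platelet lists, also picked after their values were seen, were not low. Not divided by length, WT means were 1400 for Gp5, 11064 for Srgn and 14008 for Fermt3, beside 1664 for Pf4.

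**Figure D1:**
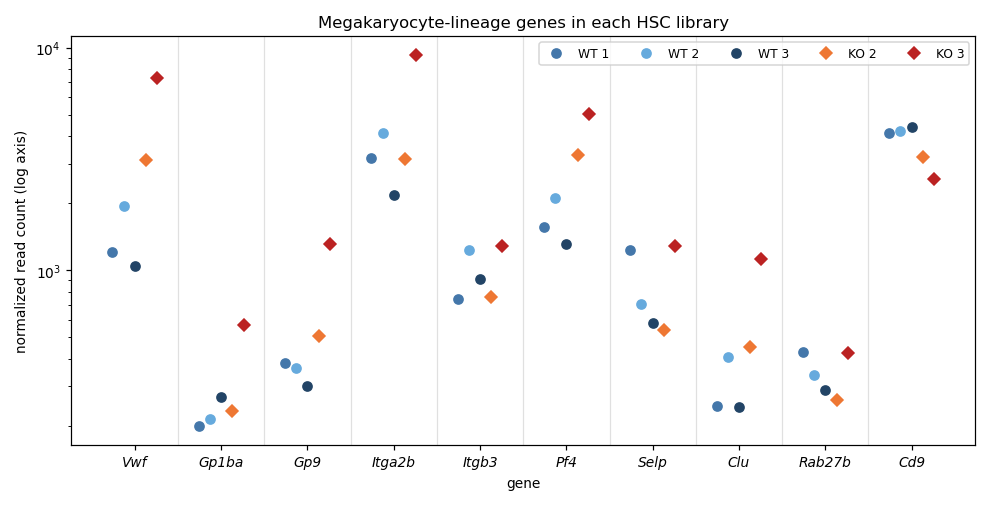
Normalized read count (log axis) of the 10 genes in each of the 5 libraries, circles for WT and diamonds for KO, 1 point per library. KO 3 is the highest library for 8 of the 10 genes, and KO 2 lies above all WT libraries for 4 of them (Vwf, Gp9, Pf4, Clu) and below them for Cd9, Selp and Rab27b.

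The question the comparison addressed was whether these genes differed between KO and WT. Vwf, Pf4, Gp9 and Clu were higher in both KO libraries than in every WT library, Cd9 was lower in both, and the other 5 genes overlapped between the groups. Non-overlap in the higher direction thus held for 4 of 10 genes, against 23.9% of all tested genes, and in the lower direction for 1 of 10, against 23.2%. In limma's fit across all genes no member passed the adjusted threshold of 0.05, which 0.00732% of tested genes passed. At an unadjusted p under 0.05 there were 5 of 10 members (4 higher, 1 lower), where 27.8% of all genes were at that level. The median log2 fold change of the 10 genes was 0.75, beside 0.02 for all genes tested. It was 0.04 for KO 2 alone and 1.46 for KO 3 alone. Since the members were chosen with earlier results of these data known, these shares and medians describe the list and do not test it. An exact permutation test of 3 against 2 libraries cannot give a two-sided p under 0.1. In the plot of counts by library, KO 3 was the highest of the 5 libraries for 8 members, and it was the highest for 35.0% of all tested genes.

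The count of calls depended on the tool. edgeR's quasi-likelihood test on reads recovered from the normalized values called 0 of the 10 genes and 0.0146% of all genes. DESeq2 on the same reads called 4 higher (Vwf, Pf4, Gp9 and Clu), against 9.02% of genes called higher, and 1 lower (Cd9), against 9.25% called lower. Leaving out a KO library left that group with 1 library, which limma assumes to vary like the WT libraries. With KO 3 left out, limma called 0 of the 10, and 2 of them, Vwf and Pf4, were at an unadjusted p under 0.05, against 14% of all genes. With KO 2 left out, limma called 7 of the 10, 6 of them higher, against 22.1% of all genes called in either direction, and the median log2 fold change of the members was then 1.46. In sorted cells sequenced in bulk, a change in the share of cells that carry a transcript and a change in its amount per cell cannot be told apart.

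Vwf encodes von Willebrand factor, the large multimeric protein that tethers platelets. The WT 1, WT 2 and WT 3 values were 1210, 1934 and 1042 normalized reads, and those of KO 2 and KO 3 were 3120 and 7319. Every KO value was above every WT value, and KO 3 was 2.35 times KO 2. The KO mean was 5219 ± 2969 (SD, n = 2) and the WT mean 1395 ± 474 (SD, n = 3). The log2 fold change of Vwf was 1.83 (SE 0.38, 95% interval 0.96 to 2.69, limma adjusted p = 0.0815), the highest of the 10, and DESeq2 gave an adjusted p of 0.000141. KO 2 alone differed from the WT mean by 1.21 on the log2 scale and KO 3, in which adipocyte genes took 0.000829% of reads, by 2.44. In GENCODE M21 (GRCm38), Vwf is a protein-coding gene on chromosome 6 from 125546774 to 125686679, plus strand.

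Endothelial cells also make Vwf and Selp, so endothelial genes were measured beside them. Cdh5, which defines endothelial cells, was listed at 0 in WT 1 and WT 3, at 32.1 in WT 2, at 54.5 in KO 2 and at 1.52 in KO 3. All 10 endothelial genes overlapped between the groups, and their summed share of reads was 0.00708% to 0.0160% in WT, 0.0138% in KO 2 and 0.0278% in KO 3, the highest of the 5. Tie1, an endothelial receptor also found in HSCs, was at 483 to 1476 normalized reads in WT, 1394 in KO 2 and 4055 in KO 3. It had the highest value of the 10 genes in KO 3. Next in KO 3 was Pecam1 at 589, beside 531 to 822 in WT, so the KO 3 share was weighted to Tie1. The part of endothelial RNA in the Vwf values was not tested.

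The receptor for von Willebrand factor is a complex of the products of Gp1ba, Gp1bb, Gp9 and Gp5. Gp1ba lies on chromosome 11 from 70639122 to 70642036 and Gp9 on chromosome 6 from 87778072 to 87779768, both protein-coding on the plus strand (GENCODE M21). Gp9, its small subunit, was at 383, 364 and 302 in WT 1, WT 2 and WT 3, at 508 in KO 2 and at 1305 in KO 3. The groups did not overlap, and KO 3 was far above the rest. The log2 fold change was 1.23 (SE 0.38, 95% interval 0.35 to 2.10, limma adjusted p = 0.101), and DESeq2 gave an adjusted p of 0.0105. Gp1ba, the subunit that binds von Willebrand factor, was at 199, 213 and 269 in WT, 232 in KO 2 and 566 in KO 3. KO 2 lay inside the WT range, and only KO 3 was above it. The log2 fold change of Gp1ba was 0.69 (SE 0.40, limma adjusted p = 0.290), with a 95% interval of -0.23 to 1.60 that does not exclude a difference. The other subunits were in a wider list. Gp5 had 1221 to 1692 in WT, 1990 in KO 2 and 6400 in KO 3, without overlap (log2 fold change 1.36, limma adjusted p = 0.1). Gp1bb, named after its values were seen to complete the complex, had 646 to 1015 in WT, 1116 in KO 2 and 3359 in KO 3 (log2 fold change 1.33, limma adjusted p = 0.104). Both KO libraries exceeded every WT library for 3 of the 4 subunits, as for 23.9% of all tested genes, and KO 2 was closer to WT than KO 3 in each.

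Integrin alphaIIb-beta3, the fibrinogen receptor, is made of the products of Itga2b and Itgb3, both on chromosome 11 (102453297 to 102470122, minus strand, and 104608000 to 104670476, plus strand). Itga2b was at 3192, 4153 and 2185 in WT, 3158 in KO 2 and 9285 in KO 3. KO 2 was in the middle of the WT values and KO 3 at 2.92 times the WT mean. For Itga2b the log2 fold change was 0.82 (SE 0.43, 95% interval -0.17 to 1.80, limma adjusted p = 0.247), of which KO 2 alone gave 0.04. Itgb3 was at 740, 1232 and 909 in WT, 756 in KO 2 and 1286 in KO 3. The values of Itgb3 were mixed between the groups, and its log2 fold change was 0.07 (SE 0.30, 95% interval -0.62 to 0.76, limma adjusted p = 0.895). Whether the partner genes differed from each other in response was not tested.

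Among the granule genes, Pf4 encodes platelet factor 4, a chemokine stored in alpha granules that is widely used as a megakaryocyte marker. It was at 1566, 2119 and 1307 in WT, 3305 in KO 2 and 5022 in KO 3. Both KO values were above all WT values, and the KO libraries were closer to each other than for Vwf, at a ratio of 1.52. This gave a log2 fold change of 1.32 (SE 0.26, 95% interval 0.72 to 1.92, limma adjusted p = 0.0815), and DESeq2 gave an adjusted p of 0.000444. KO 2 alone differed from the WT mean by 1.02 and KO 3 by 1.62. Pf4 is a protein-coding gene on chromosome 5 from 90772435 to 90773383, plus strand.

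Selp encodes P-selectin, an adhesion receptor of the alpha granule membrane that is also raised in aged HSCs. It was at 1238, 701 and 581 in WT, 536 in KO 2 and 1279 in KO 3. The KO libraries held both the lowest and the highest value, and the log2 fold change was 0.06 (SE 0.42, 95% interval -0.91 to 1.02, limma adjusted p = 0.940). Rab27b, a small GTPase of granule docking and dense granule release, was at 429, 339 and 289 in WT, 262 in KO 2 and 425 in KO 3. Its groups overlapped as well, with a log2 fold change of -0.06 (SE 0.32, 95% interval -0.78 to 0.66, limma adjusted p = 0.917). Rab27b was 1 of 2 members, with Cd9, whose highest library was a WT library.

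Clu encodes clusterin, a secreted chaperone that is also found in platelet granules and in aged HSCs. It was at 246, 406 and 242 in WT, 453 in KO 2 and 1122 in KO 3. Both KO values lay above WT, KO 2 by a small margin over WT 2. For Clu it was 1.30 on the log2 scale (SE 0.42, 95% interval 0.35 to 2.25, limma adjusted p = 0.104), and DESeq2 gave an adjusted p of 0.0158.

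Cd9, the tetraspanin of megakaryocytes, platelets and HSCs, was the member that went the other way. It was at 4143, 4234 and 4418 in WT, 3233 in KO 2 and 2559 in KO 3. The WT values were tight, and both KO values were below them. For Cd9 the log2 fold change was -0.57 (SE 0.18, 95% interval -0.97 to -0.17, limma adjusted p = 0.0992), and DESeq2 gave an adjusted p of 0.0287. KO 2 was 0.758 times and KO 3 0.6 times the WT mean. In the annotation, the Cd9 gene is overlapped by Gm28809 and Gm26728 on the opposite strand, and Selp by Gm16587 and Gm16548. Rab27b is also overlapped by a gene on the opposite strand, and Itga2b by Gm23563 on the same strand. The use of strand in counting was not stated, so reads of such neighbours cannot be told apart.

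**Figure D2:**
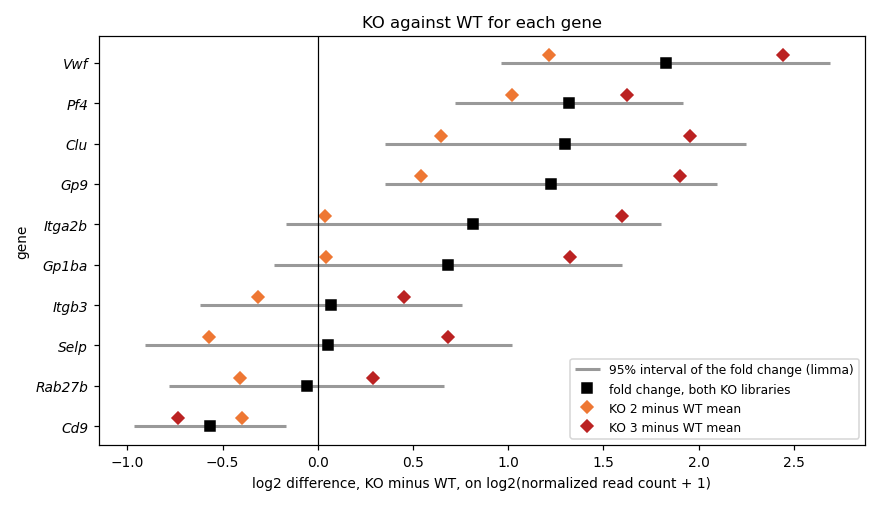
Log2 difference between KO and WT for each gene, with the estimate from both KO libraries (squares), its limma 95% interval (lines) and each KO library apart (diamonds). The intervals of Vwf, Pf4, Clu and Gp9 lie above 0 and that of Cd9 below it before adjustment, and KO 3 lies farther to the right than KO 2 for every gene except Cd9.

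Fold changes across all genes moved with the base composition of the transcript, and the members were therefore read against genes of like GC content. From the decile of genes with the lowest GC content (median 39.8%) to the decile with the highest (59.9%), the median log2 fold change went from -0.76 to 0.73. Pf4, with 50% GC, was in a decile with a median of 0.06, and Gp1ba and Selp were in the same decile. Vwf, with 56.5% GC, was in a decile with a median of 0.46, and Clu, with 55.6%, in a decile with 0.32. Itga2b and Gp9 were in the top decile, with a median of 0.73. Cd9 was in a decile with a median of -0.35, and Rab27b, at 37.9% GC, in the lowest decile. The fold changes of Vwf, Pf4, Gp9, Clu, Gp1ba and Rab27b were above the medians of their deciles, Itga2b was close to its own, Cd9 was below it, and Itgb3 and Selp were at or below theirs. Once a linear trend on transcript length and GC content had been taken out of every library, the log2 fold change was 1.37 for Pf4, 1.31 for Vwf, 0.91 for Clu and 0.66 for Gp9, while it was 0.22 for Itga2b and -0.25 for Cd9. For the other members it was 0.78 for Rab27b, 0.565 for Gp1ba, -0.028 for Selp and -0.11 for Itgb3. At an unadjusted limma p under 0.05 there were then 3 of 10 members, where 2253 of 13015 genes were at that level. The part of base composition or depth in these differences was not tested further.

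**Figure D3:**
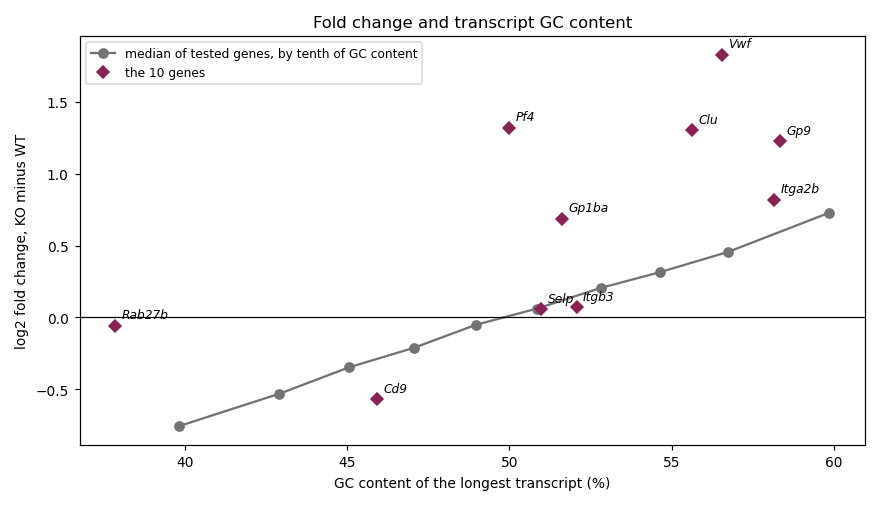
Log2 fold change (KO minus WT) against the GC content of the longest transcript, for the 10 genes (diamonds) and as the median of all tested genes in each of 10 deciles of GC content (line). The line rises from -0.76 to 0.73, with Pf4 and Vwf well above it, Selp on it and Cd9 below it.

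To place these genes in their wider program, 75 other megakaryocyte and platelet genes were measured in 4 lists, of which 73 were in the table and 67 were tested. These lists too were chosen with earlier results of these data known. limma and edgeR called 0 of the 67. At an unadjusted p under 0.05 limma had 14 higher and 12 lower of the 67, beside 13.3% and 14.5% of all tested genes. DESeq2 called 10 higher and 7 lower, beside 9.02% and 9.25%. Both KO values lay above all WT values for 21 genes (31.3%, beside 23.9% of all tested genes) and below them for 10 (14.9%, beside 23.2%). The median log2 fold change was 0.23, with 0.03 for KO 2 alone and 0.41 for KO 3 alone.

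Among platelet receptors and their signalling genes, 7 of 20 tested (35%) were higher in both KO libraries and 2 (10%) were lower, beside 23.9% and 23.2% of all tested genes, with a median log2 fold change of 0.33 (0.22 for KO 2 alone, 0.62 for KO 3 alone). Tbxa2r, the thromboxane A2 receptor, was at 418, 292 and 192 in WT, 667 in KO 2 and 3420 in KO 3. Both KO values were above WT, and KO 3 was far above KO 2. The difference was 2.40 on the log2 scale (SE 0.62), with a limma adjusted p of 0.0820. Pear1, a platelet aggregation receptor, had 571 to 1883 in WT, 2094 in KO 2 and 4389 in KO 3. P2rx1, an ATP-gated channel, had a smaller log2 fold change of 0.35. Itgb1, the beta1 integrin, was at 5079 to 5567 in WT and at 3817 and 4210 in KO (log2 fold change -0.42), and Fcer1g, the signalling chain of the collagen receptor, gave -0.62. Both Itgb1 and Fcer1g were below WT in each KO library, and limma's adjusted p was 0.138 and 0.154.

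Genes of granule cargo and secretion had a median log2 fold change of -0.26 (-0.21 for KO 2 alone, -0.24 for KO 3 alone), with 3 of 24 (12.5%) higher and 6 (25%) lower in both KO libraries, beside 23.9% and 23.2% of all tested genes. F13a1, the A chain of coagulation factor XIII, was at 1785, 3234 and 1954 in WT, 767 in KO 2 and 645 in KO 3. Here the KO libraries lay close together and below WT (log2 fold change -1.67, SE 0.27, limma adjusted p = 0.0815). Plek, pleckstrin, gave -1.30 and Snap23, a SNARE protein of granule release, -1.26. In the opposite direction stood Tgfb1, transforming growth factor beta 1, at 3376 to 4741 in WT, 6214 in KO 2 and 12350 in KO 3. The difference was 1.21 on the log2 scale (SE 0.30, limma adjusted p = 0.0818). Pdgfb gave 2.65 at low counts (6.00 to 57.3 in WT) and Stxbp2 0.23. F13a1 and Plek are also expressed in monocytes and other myeloid cells, and the neutrophil gene share was lower in both KO libraries as given above. Both KO values lay below all WT values for 4 of 10 neutrophil genes (40%) and for 1 of 7 macrophage genes (14.3%), beside 23.2% of all tested genes. The macrophage gene was Csf1r, a receptor of monocytes and macrophages (log2 fold change -1.08, limma adjusted p = 0.0820), and the median over the 7 was -0.51, with 0 of them above 0. The macrophage median was 0.28 for KO 2 alone and -1.30 for KO 3 alone, so the KO libraries differed in sign. The part of myeloid RNA in the F13a1 and Plek values was not tested.

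Of the cytoskeletal genes, 4 of 7 tested (57.1%) were higher in both KO libraries, beside 23.9% of all tested genes, and 0 were lower, beside 23.2%. The rest overlapped between the groups, and all of their log2 fold changes were below 0, from -0.635 to -0.104. Their median log2 fold change was 0.24 (0.20 for KO 2 alone, 0.18 for KO 3 alone). Bin2, an adaptor of membrane and cytoskeleton, was at 5308 to 6910 in WT, 7118 in KO 2 and 13954 in KO 3. The difference was 0.69 on the log2 scale (limma adjusted p = 0.156). Myl9 and Tubb1, of myosin light chain and platelet tubulin, gave 1.35 and 1.08 at counts of 76 or fewer, and Tuba8 gave 0.24.

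Transcription factors and the thrombopoietin pathway had 7 of 16 genes (43.8%) higher and 2 (12.5%) lower in both KO libraries, beside 23.9% and 23.2% of all tested genes, with a median log2 fold change of 0.39 (0.08 for KO 2 alone, 0.84 for KO 3 alone), so that KO 3 gave most of it. Zfpm1, the GATA cofactor FOG1, was at 2666, 4468 and 3343 in WT, 7468 in KO 2 and 20105 in KO 3. Both KO values were above WT, and KO 3 by a wide margin (log2 fold change 1.84, SE 0.39, limma adjusted p = 0.0815). Gata2, a stem cell and early megakaryocyte factor, had 2269 to 4973 in WT, 5333 in KO 2 and 14815 in KO 3 (log2 fold change 1.29, limma adjusted p = 0.118). Lyl1 gave 0.76 and Gfi1b 0.31. Jak2, a kinase of cytokine signalling, was at 1867 to 2271 in WT and at 1421 and 1095 in KO. The difference was -0.71 on the log2 scale (limma adjusted p = 0.0879), and that of Ets1 was -0.99 (limma adjusted p = 0.0820). Zfpm1, Gata2, Lyl1, Tbxa2r, Gp5 and Pdgfb were in the decile of genes with the highest GC content, whose median was 0.73, and Snap23 in the lowest, whose median was -0.76.

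Gata1, the master factor of the lineage, was looked up after the lists had been seen. It was at 2590 to 3442 in WT and at 3134 and 2819 in KO, within the WT range, with a log2 fold change of -0.06 (SE 0.19, limma adjusted p = 0.864).

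**Figure D4:**
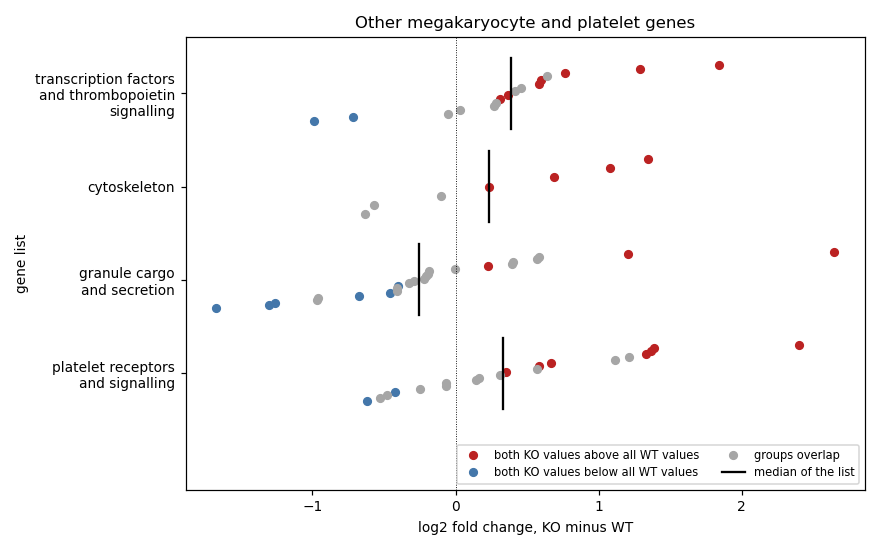
Log2 fold change (KO minus WT) of the 67 tested genes in 4 further megakaryocyte and platelet lists, 1 point per gene, coloured by whether both KO values lay above or below all WT values, with the list median as a bar. Medians are 0.33 for receptors, -0.26 for granule genes, 0.24 for cytoskeletal genes and 0.39 for transcription factors and thrombopoietin signalling.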

How the data were processed

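Bulk RNA-seq was measured in 5 libraries of sorted mouse HSCs prepared with the SMART-Seq v4 Ultra Low Input kit. The submitters' processing notes name STAR, featureCounts, DESeq2 and mm10. Their versions, the annotation and the use of strand are not given in the sources used here. The authors deposited normalized signal per gene, in which each count of reads had been scaled by a library's size factor. The values were whole multiples of 1 step per library, and dividing by it gave whole reads for 100% of values (tolerance 0.01). A deposited table of the authors' own comparison, with log2 fold changes and p-values, was not used.

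limma 3.58.1 (lmFit, eBayes with a trend; R 4.3.3) was run on log2(value + 1) for 13661 genes (2 or more libraries at 10 or above), with all 5 libraries and no covariate. The test was two-sided with Benjamini-Hochberg adjustment over all genes, and the threshold was 0.05. On this scale the changes of low genes are understated. edgeR 4.0.16 and DESeq2 1.42.0 on recovered reads, other pseudocounts, filters, scalings, weights, a block, a GC correction and leaving out each library were alternatives. Scripts were tested on simulated data. The floor of 3 reads equals 2.50 to 4.56 normalized reads and covers counting error only, since without molecular identifiers a molecule can be read more than once. All 10 pairs of libraries differed beyond sampling noise (lowest chi-square over its degrees of freedom, 34.1).

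Length and GC content came from each gene's longest GENCODE M21 transcript, matched by symbol for 13015 tested genes (95.3%), and promoters from RefSeq. The members and lists were chosen with earlier results of these data known. From each wider list the text names, where no gene passed the threshold, the 3 genes with the largest and the 3 with the smallest fold change among those whose groups did not overlap. Members and Syncrip are always given. Mpig6b, Diaph1, Ly6g, Epb42 and Adgre1 are not analysed here. Gp6, P2ry12, Cd226, Pdgfa and Dnm3 were among the listed genes that did not pass the filter. Single values of some listed genes are not reported here.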

Additional observations from a re-analysis of the deposited data

How the results depend on the processing

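With 2 KO libraries, KO 3 the shallower, differences of KO 3 alone weigh heavily. limma called 1 gene in all (Syncrip); the count was 2 with a pseudocount of 10, 2 with edgeR, 2266 with DESeq2 (1119 higher, 1147 lower), 0 with no filter (3963 had an unadjusted p under 0.05), 0 with array weights and 0 after removal of the length and GC trend. Of the 10 genes 0 were called, against 5 with DESeq2, and of the 67 further genes 0, against 17 with DESeq2. Leaving out each library gave 0 to 3024 genes called, 0 to 7 of the 10, and 0 to 22 of the 67, where the highest count in each came without KO 2. The number of the 10 genes without overlap between groups was 5 (47.1% of all tested genes), ranged from 5 to 9 when a library was left out (9 without KO 2; 52.5% to 78.3% of all tested genes), and was 4 after removal of that trend (35.7%). Over 16 alternatives, 7 of the 10 genes never changed the sign of their fold change. Rab27b, at -0.06, was 0.018 with array weights and 0.78 with the GC trend removed, with a range of -0.41 to 0.29 when a library was left out. Itgb3, at 0.07, was -0.11 with the GC trend removed, with a range of -0.31 to 0.45. Selp, at 0.06, was -0.028 with the GC trend removed, with a range of -0.57 to 0.68. The cause was not tested.

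Libraries numbered 2 and 3 occur in both groups, but the labels do not tie the numbers to a shared animal or batch. Deviations from the group means correlated at -0.06 for number 2 and -0.18 for number 3. With the number as a replicate block, 6 genes were called (2 higher, 4 lower) and 0 of the 10, and the fold change was 0.093 for Rab27b and -0.10 for Itgb3.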
